A study of Caenorhabditis elegans with 2 samples.

Results

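Autosomal ZTF-11 peaks distant from coding gene starts numbered 464 of the 1875 peaks that passed a test of irreproducible discovery rate (IDR). A peak was counted as distant where no 5' end of a protein-coding gene record lay within 1000 bp of its summit and no 5' end of a tRNA, snoRNA or snRNA gene lay within 100 bp. Of the 1551 autosomal peaks, 464 (29.9%, exact 95% interval 27.6 to 32.3) met this rule, 1021 lay within 1000 bp of a coding gene start and are called start-proximal here, and the other 66 lay at small RNA genes only. The same rule held for 63.9% of autosomal bases and for 63.3% of weak background regions. The choice used annotation and position, and no binding value. Binding was measured by chromatin immunoprecipitation and sequencing (ChIP-seq) with an antibody against GFP on whole hermaphrodite first-stage (L1) Caenorhabditis elegans larvae, 6 h after synchronization at the starved L1 stage. The strain, OP511, has the genotype unc-119(tm4063) III; wgIs511 and carries a stable transgene that expresses ZTF-11 with a GFP-FLAG tag at its C terminus. The labels give 1 group of 2 biological replicates, so no conditions were compared, and every test below counts peaks or windows and says nothing of the spread between cultures. The samples are whole animals, so the cells that gave a peak are not known, and both replicates carry the same transgene and unc-119 allele.

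ZTF-11 is the worm member of the MYT1 family of zinc-finger transcription factors, which promote neurogenesis, and in the worm it is known to act by repressing non-neuronal genes. Sites far from gene starts are of interest because enhancers and silencers can lie between genes or inside introns, away from the promoter they act on. C. elegans genes are compact and often trans-spliced, so transcription can begin upstream of the 5' end in the annotation, and a peak called distant here can still lie at an unannotated start.

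The sequences at the strongest distant summits are shown because they carry the words that the motif counts below turn on. Each is the reference window of 50 bp either side of the summit on ce11, from RefSeq WBcel235. Capitals mark every GAGAGA, every CTGCGTCT and a longer word, GGAGTACACGGC, on either strand. The first 6 are intergenic and are named by the coding genes on both sides.
F58D12.1 and F58D12.3, chrV:14055188-14055288, plus strand: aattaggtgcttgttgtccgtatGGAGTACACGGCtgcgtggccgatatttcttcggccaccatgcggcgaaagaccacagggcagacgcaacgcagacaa
R12C12.7 and H12I13.1, chrII:6061645-6061745, plus strand: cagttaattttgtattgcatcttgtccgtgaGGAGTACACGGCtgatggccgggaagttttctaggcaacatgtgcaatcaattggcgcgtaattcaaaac
sup-26 and R10E4.3, chrIII:4282166-4282266, plus strand: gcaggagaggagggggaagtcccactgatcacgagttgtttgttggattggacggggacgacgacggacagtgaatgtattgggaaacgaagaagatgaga
T04C4.3 and fnip-2, chrIV:2219589-2219689, plus strand: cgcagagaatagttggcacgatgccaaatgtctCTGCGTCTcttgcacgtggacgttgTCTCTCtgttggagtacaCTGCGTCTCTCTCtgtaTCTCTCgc
F38A6.4 and hif-1, chrV:20778365-20778465, plus strand: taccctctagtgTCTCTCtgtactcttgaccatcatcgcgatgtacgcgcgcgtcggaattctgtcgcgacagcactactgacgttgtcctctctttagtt
srw-60 and nhr-88, chrII:2974031-2974131, plus strand: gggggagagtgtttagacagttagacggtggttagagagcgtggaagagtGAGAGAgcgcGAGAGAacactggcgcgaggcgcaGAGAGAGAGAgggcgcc
The GA repeat GAGAGA was in 3 of these windows, between T04C4.3 and fnip-2, between F38A6.4 and hif-1 and between srw-60 and nhr-88. The window between T04C4.3 and fnip-2 also held CTGCGTCT, which runs straight into a GA repeat there.

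The next 6 windows lie in introns and are named by their host gene, and they are shown for the same words.
Y111B2A.12, chrIII:12612612-12612712, plus strand: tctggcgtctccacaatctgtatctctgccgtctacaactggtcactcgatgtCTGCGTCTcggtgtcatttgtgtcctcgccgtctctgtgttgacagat
Y65A5A.2 (stronger peak), chrIV:16415742-16415842, plus strand: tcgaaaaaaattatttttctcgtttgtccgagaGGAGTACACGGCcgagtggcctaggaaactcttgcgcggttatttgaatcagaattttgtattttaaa
Y65A5A.2 (weaker peak), chrIV:16415238-16415338, plus strand: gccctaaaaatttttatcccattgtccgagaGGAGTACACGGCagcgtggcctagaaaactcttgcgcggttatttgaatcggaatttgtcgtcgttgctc
nurf-1, chrII:14405220-14405320, plus strand: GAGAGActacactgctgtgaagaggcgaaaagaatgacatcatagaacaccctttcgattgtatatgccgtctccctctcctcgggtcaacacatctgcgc
pqn-41, chrIII:1921402-1921502, plus strand: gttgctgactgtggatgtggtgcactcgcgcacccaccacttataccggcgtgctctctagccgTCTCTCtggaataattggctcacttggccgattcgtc
scc-2, chrII:255299-255399, plus strand: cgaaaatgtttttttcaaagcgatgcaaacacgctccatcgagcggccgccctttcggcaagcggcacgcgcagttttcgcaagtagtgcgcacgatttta
Both windows in Y65A5A.2 lay in the same intron, 504 bp apart, and both held GGAGTACACGGC. The same 12 bases were in the windows between F58D12.1 and F58D12.3 and between R12C12.7 and H12I13.1, although the 51 bases at each of these 4 summits occur once in the reference. This word was picked after the 4 windows had been seen, so its counts are a description. It was in the windows of 6 distant peaks (1.29%), with pooled signals from 69.9 to 781, in 15 start-proximal windows (1.47%) and in 2 of 5885 background windows (0.034%). On the autosomes the word occurs 79 times. Of the 45 sites that met the distance rule 6 had a summit within 50 bp (13.3%, interval 5.05 to 26.8), and of the 34 within 1000 bp of a coding start 15 had one (44.1%, 27.2 to 62.1). Most of the 45 lay on soft-masked bases, which mark repeats in the reference: 4 of the 6 with a summit and 32 of the 39 without one.

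Among the distant peaks that sit at a non-coding gene, one window is shown because it holds a mature microRNA, whose bases are in capitals.
cel-mir-52, chrIV:14033967-14034067, plus strand: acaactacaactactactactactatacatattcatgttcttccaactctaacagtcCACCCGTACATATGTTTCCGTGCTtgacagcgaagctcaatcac
The summit lay 9 bp from the annotated 5' end of cel-mir-52, a member of the mir-51 family of microRNAs, between the coding genes irld-55 and Y37A1B.7. Its pooled signal was 240.

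The 25 strongest distant peaks were found in both replicates with 1 exception. The signal in the deposited lists is the caller's own value for each region, so strength is given as pooled signal and as the rank in each replicate's list, where 1 is the strongest. The first, between F58D12.1 and F58D12.3, had a pooled signal of 781 and ranked 5 in replicate 1 and 13 in replicate 2. The second, in intron 4 of Y111B2A.12, had a signal of 646 and ranked 17 in both. The third, at a signal of 587 and ranks 30 and 27, lay in an exon of the long non-coding RNA linc-128, and its nearest coding start was that of cmd-1, the calmodulin gene, 4752 bp away. These 3 sites were among the highest of each replicate. The peaks in Y65A5A.2 had signals of 561 (ranks 20 and 55) and 475 (50 and 47). The peak between R12C12.7 and H12I13.1 had a signal of 516 and ranks 36 and 57. The peak between sup-26, an RNA-binding protein gene, and R10E4.3 had a signal of 483 and ranks 76 and 34.

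The next strongest peaks lay in or beside genes of several kinds. One at a signal of 435 (ranks 84 and 60) was in intron 20 of nurf-1, which encodes a subunit of the NURF chromatin remodelling complex. One at 404 (ranks 99 and 82) lay between nlp-40, a neuropeptide gene, and rcor-1, the CoREST corepressor gene. One at 385 was in intron 9 of pbrm-1, a subunit gene of the PBAF remodelling complex, one at 355 (107 and 144) in the first intron of scc-2, which encodes the cohesin loader, and one at 325 (160 and 137) in intron 6 of zfp-1, the worm AF10 homologue. These genes are named because they host or flank one of the 25 strongest peaks. The list of corepressors and chromatin regulators counted here holds rcor-1 but not nurf-1, pbrm-1, scc-2 or zfp-1. Of its 31 autosomal members 2 had a distant peak (6.45%, rcor-1 and egl-27), beside 3.14% of all autosomal coding genes. Other peaks of the 25 lay beside hif-1, the hypoxia-inducible factor gene, at 395 (ranks 114 and 75), in an intron of pqn-41 at 362 (173 and 72), in an intron of hmt-1 at 353 (88 and 256) and in an intron of pptr-2, a regulatory subunit gene of protein phosphatase 2A, at 310 (168 and 178). A peak at 457 (ranks 51 and 84) was in the first intron of T28F4.1, one at 363 (106 and 126) between Y105C5A.1 and pqn-76, one at 351 in an intron of W05H12.1 and one at 345 (164 and 92) in a 5' UTR of C34C12.2. Of the 25, 10 were intergenic, 12 were in introns of coding genes and 3 were in other classes, and among those with a match the lowest ranks were 197 in replicate 1 and 256 in replicate 2.

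The exception was the fifth strongest peak, on chromosome I from 9383032 to 9383233 inside ppfr-1, with a pooled signal of 526. It ranked 40 in replicate 1 and had no match within 100 bp in the list of replicate 2. The 51 bases at its summit occur 871 times in the reference, where 454 of the 464 distant peaks have a sequence found once and 10 have one found more often. The ppfr-1 gene, of 25884 bp, hosted 7 distant peaks, more than any other gene, and 6 of these had a match in both replicates' lists. The part that repeated sequence has in the signal was not tested. Across all 464 peaks 61 summits (13.1%) were on soft-masked bases, which mark repeats in the reference, against 31.1% of background summits (Fisher's exact test, two-sided, p = 3.05e-18) and 14.9% of start-proximal summits (p = 0.424).

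The distant peaks were weaker as a set than the start-proximal ones. Their pooled signal had a median of 94.1 (quartiles 76.5 and 142, highest 781), against 120 (84.2 and 199, highest 1072). They made up 38.9% of the autosomal peaks in the lowest of 4 equal bins of signal, 34.5% and 27.9% in the middle bins and 18.3% in the highest. Of the 464, 284 (61.2%, interval 56.6 to 65.7) had a summit within 100 bp among the 1875 strongest regions of each replicate, against 758 of 1021 start-proximal peaks (74.2%; odds ratio 0.548, Fisher's exact test p = 5.01e-07). Within these bins the shares were close, at 17.2% against 19.8% in the lowest, 64.2% against 69.1% and 94.4% against 95.1% in the middle, and 98.6% against 98.7% in the highest (Fisher's exact test, adjusted p = 1 in each, adjusted over the 4 bins). In the full replicate lists 432 distant peaks (93.1%) were matched in both, against 96.5% of start-proximal peaks (Fisher's exact test p = 0.00688) and 2.70% of background regions. The gap to background largely follows from the choice of sets. IDR peaks were kept for agreement between replicates, and background regions were taken for their low rank. Across these 432, Spearman's rho of the replicate signals was 0.586, and it was 0.775 across the 985 start-proximal peaks matched in both, as a description of peaks that were kept partly on these signals.

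**Figure D1:**
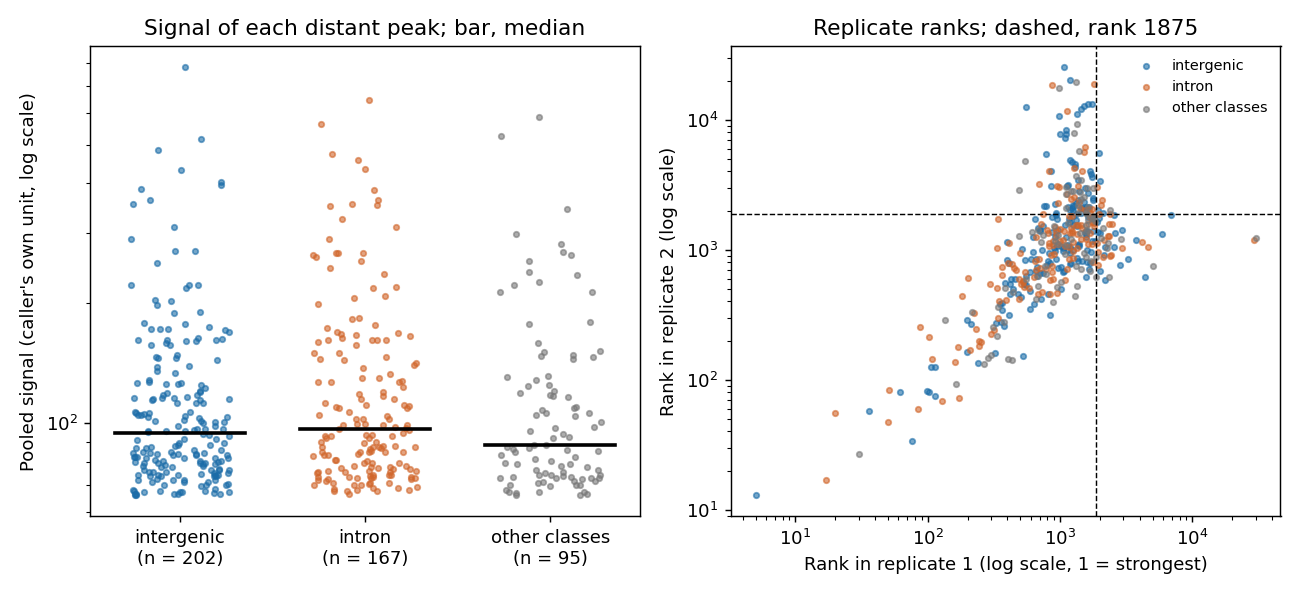
Left, pooled signal of every distant peak on a log scale by the class of sequence at its summit, with the median as a bar; right, the rank of each peak in replicate 1 against its rank in replicate 2, both on log scales, for peaks found in both lists, with dashed lines at rank 1875. Medians are 94.8 for intergenic and 96.8 for intron peaks, and 284 peaks lie within both dashed lines.

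Intergenic sequence held more distant peaks than background, and coding exons held fewer. Background here means regions of the pooled list ranked after 18750 that met the same rule of distance, of which there were 5885. Of the 464 summits, 202 were intergenic (43.5%), against 26.4% of background and 30.4% of the bases that met the rule (odds ratio 2.15, Fisher's exact test with Benjamini-Hochberg adjustment over 7 classes, adjusted p = 8.08e-14). Coding exons held 18 (3.88%), against 29.97% of background and 22.9% of bases (odds ratio 0.0968, exact adjusted p = 1.42e-43). Introns of coding genes held 167 (35.99%), close to the 34.1% of background and 36.9% of bases (exact adjusted p = 0.486). Exons of non-coding genes and pseudogenes held 58 (12.5%), against 4.49% (odds ratio 3.06, exact adjusted p = 1.35e-10). The smaller classes were 5' UTR with 8 (1.72% against 0.527%, exact adjusted p = 0.011), 3' UTR with 6 (1.29% against 3.14%, adjusted p = 0.0319) and introns of other genes with 5. When summits on soft-masked bases were left out of both sets, the intron share was 36.97% and was higher than that of background (exact adjusted p = 1.77e-07).

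**Figure D2:**
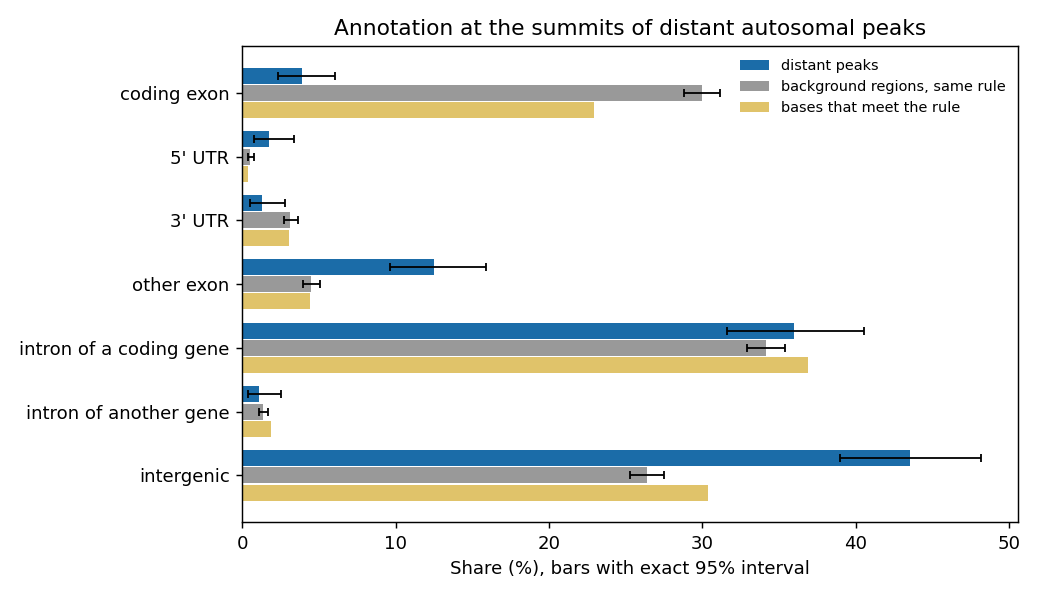
Share of summits in each class of annotation for the 464 distant peaks and 5885 background regions, with exact 95% intervals, and share of the autosomal bases that meet the rule of distance. Distant peaks exceed background in intergenic sequence (43.5% against 26.4%) and lie far below it in coding exons (3.88% against 29.97%).

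Between introns and intergenic sequence no difference in the match of replicates was called. The median signal was 96.8 in introns and 94.8 between genes. Of the 167 intron peaks 64.7% were matched in both replicates' top lists, and of the 202 intergenic peaks 59.9% (odds ratio 1.22, Fisher's exact test p = 0.389), with exact 95% intervals of 56.9 to 71.9 and 52.8 to 66.7. Intron peaks lay farther from a coding start, at a median of 3513 bp against 2570 bp. Their summit windows had a mean GC content of 48.5% ± 7.96 (SD over 167 peaks) and 48.3% ± 7.90 (SD over 202), and the GC content fell to that of the surrounding sequence on both sides, as the plot of GC content by distance shows.

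The introns that held peaks were long and more often the first. The 167 peaks lay in 134 host genes, in introns with a median length of 3747 bp, against 1146 bp for introns that held background regions. Of these peaks 118 (70.7%) were in an intron of 2000 bp or more, against 34.3% of background (odds ratio 4.58, Fisher's exact test adjusted over 4 features, adjusted p = 2.93e-19). First introns held 49 (29.3% against 13.2%, odds ratio 2.74, exact adjusted p = 4.57e-07). A start of another transcript of a coding gene lay within 1000 bp of 51 (30.5% against 18.7%, exact adjusted p = 6.77e-04) and within 500 bp of 26 (15.6%, interval 10.4 to 21.97, against 10.1%, adjusted p = 0.0349, and 13.9% with p = 0.162 for peaks 2000 bp or more from a coding start), so that this share of the intron peaks was distant from the gene record's start and close to an internal one.

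Intergenic peaks had no called preference for the orientation of their flanking genes. Of the 202, 65 (32.2%) lay between divergent genes, 117 (57.9%) between genes on the same strand and 20 (9.90%) between convergent genes, against 31.4%, 55.2% and 13.3% of intergenic background regions (Fisher's exact test, adjusted p = 0.872, 0.748 and 0.656). The nearest edge of a coding gene was a 5' end for 114 (56.4%, interval 49.3 to 63.4) against 49% of background (exact p = 0.0517). The gap between the flanking genes had a median of 6966.5 bp, against 7547 bp for background. The nearest edge of a coding gene lay within 1000 bp of 54 intergenic summits (26.7%), and under the rule of distance all such edges are 3' ends.

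Distance itself varied widely. Summits lay a median of 2880.5 bp from a coding start (quartiles 1812 and 4752), 141 peaks (30.4%) lay within 2000 bp, 106 (22.8%) beyond 5000 bp and 27 beyond 10000 bp. The farthest, at 28668 bp, lay between sql-1 and aakg-1 at a signal of 67.4 and ranks 2015 and 3375. Strong peaks occurred far out too: the 4 peaks in pqn-41, a gene of 33613 bp, lay 15494 to 18265 bp from a coding start with signals from 166 to 362, and all 4 ranked 544 or better in both replicates. At the limit of the rule, the nearest peaks inside lay 1004, 1018 and 1020 bp from a coding start with signals of 94.5, 178 and 177, and the nearest outside lay 999, 987 and 977 bp away with signals of 141, 74.4 and 203.

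Distant peaks occurred on each autosome. Chromosome III had 30.6% of its 366 peaks in this set, or 12.1 per Mb of sequence that met the rule. Chromosome I had 107 of 361 (29.6%, 10.6 per Mb), II had 85 of 302 (28.1%, 9.09 per Mb), IV had 90 of 266 (33.8%, 7.63 per Mb) and V had 70 of 256 (27.3%, 5.75 per Mb). The intervals of these percentages overlapped. Another IDR summit lay within 1000 bp of 64 distant peaks (13.8%) and within 5000 bp of 217 (46.8%), so part of the set comes in groups. Some neighbours are called regions that overlap, such as a pair between sup-26 and R10E4.3 with summits 199 bp apart. A pair in ppfr-1, with summits 217 bp apart, overlaps too. Each such region counts as its own peak in the tests and gene counts. Shares for start-proximal peaks and background are not given here.

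A share of the distant peaks sat at the start of a non-coding gene that the rule does not use. Within 100 bp of 49 summits (10.6%) lay the 5' end of a non-coding RNA gene other than a piRNA, or of a pseudogene, against 2.09% of background regions (odds ratio 5.56, Fisher's exact test p = 1.36e-17) and 11.2% of start-proximal peaks (p = 0.788). Of these genes 41 were annotated as ncRNA, 6 as pseudogenes, 1 was a microRNA and 1 a lincRNA. The strongest peak at such a start was the one in ppfr-1 at a signal of 526, whose summit lay 38 bp from the 5' end of the ncRNA gene F16A11.7, and which has the repeated sequence and no match in replicate 2 described above. The gene rpr-1, which encodes the RNA component of ribonuclease P, had its 5' end 4 bp from a summit inside ints-8 with a signal of 282, ranked 264 in replicate 1 and 132 in replicate 2. The ncRNA genes C31H1.97 (signal 270, 22 bp), K11G9.7 (235, 37 bp), T28B11.18 (222, 68 bp), F40F9.14 (213, 66 bp) and Y37A1B.331 (204, 56 bp) followed. The summit at Y37A1B.331 lay 711 bp from the one at cel-mir-52. Of the 49 peaks 32 (65.3%) were matched in both replicates' top lists, and 17 lay inside a coding gene.

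The GA repeat was more frequent at the distant summits than beside them. GAGAGA, counted on both strands within 50 bp of the summit, was in 168 of 464 windows (36.2%), against 7.76% of windows centred 400 bp away on either side (ratio 4.62), 6.08% of background and 18.7% of start-proximal windows. The summit windows exceeded both flanks (exact McNemar test, the larger p of the 2 sides, Benjamini-Hochberg adjusted over 18 motifs, adjusted p = 2.65e-22). CTGCGTCT was in 64 windows (13.8%) against 0.862% of flanks and 0.731% of background. This word was found in earlier work on these same peaks, which fixes its excess, so it is described with no test, and that work had already shown the direction of GAGAGA and AAGTT. The 2 words can share bases where CTGCGTCT runs into a GA repeat, and 40 windows held both, 128 only GAGAGA and 24 only CTGCGTCT. Of 18 motifs, 5 were called higher at the summits than in both flanks (27.8% of those tested), a count that includes CTGCGTCT. The other 3 were E-boxes, the sites of basic helix-loop-helix factors, as CANNTG (41.6% against 27.8%, ratio 1.49, exact adjusted p = 1.50e-04) and as its proneural forms CAGCTG or CACCTG, which are contained in it (9.70% against 4.63%, ratio 2.07, adjusted p = 0.01), and the E2F-like site GCGCGAA or GCGGGAA (5.60% against 1.94%, ratio 2.79, adjusted p = 0.0333). In the 1875 strongest regions of replicate 2 alone only GAGAGA and CTGCGTCT of these 5 were called. The E2F-like call held at 500 bp from coding starts and for unmasked summits. It was lost in replicate 1 alone, at 2000 bp, with the 5' ends of all transcripts and with 1000 bp from every non-coding 5' end. It was also lost with windows of 25 or 100 bp, with flanks 800 bp away and among peaks at or above the median signal. CAGCTG or CACCTG was not called among those stronger peaks either.

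Other motifs were rarer at the summits than beside them, and 4 of 18 (22.2%) were called lower. AAGTT, the core that MYT1-family zinc fingers recognise, was in 42 windows (9.05%) against 37.4% of flanks and 31.8% of background (ratio 0.244, exact adjusted p = 3.41e-22). TTCGAA or TTTGAA, the CHR element bound by the MuvB subunit LIN-54, was in 17.5% against 33.9% of flanks and 29.4% of background (ratio to flanks 0.516, exact adjusted p = 2.64e-07). TGATAA, the GATA site, was in 2.37% against 8.41% (exact adjusted p = 1.71e-04), and TATAAA in 3.66% against 10.9% (adjusted p = 0.00101). The summit windows were richer in G and C, at a mean of 49.1% ± 7.97 (SD over 464 peaks) against 35.3% and 35.5% in the flanks, and these 4 words are rich in A and T. The part that base composition has in these differences was not tested. At a GC content of 40 to 50%, AAGTT was in 9.52% of 189 distant windows, 19.5% of 435 start-proximal windows and 26.7% of 1840 background windows, and GAGAGA was in 35.98%, 13.1% and 7.93% of them. Below 40% the gaps between distant and start-proximal windows were smaller, with AAGTT in 25% of 60 and 31.4% of 156 windows and GAGAGA in 13.3% and 10.3%, and CTGCGTCT was in 0 of the 60 distant windows and 4.49% of the 156. At 50% or more, AAGTT was in 4.19% of 215 and 9.77% of 430 windows, GAGAGA in 42.8% and 27.4%, and CTGCGTCT in 20% and 11.4%. TTCGAA or TTTGAA was not below background in the bands under 50%. It was in 43.3% of distant and 38.8% of 3414 background windows below 40%, and in 20.1% and 18.6% at 40 to 50%. At 50% or more it was in 7.91% of distant and 9.98% of 631 background windows. These shares by band were given no test.

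**Figure D3:**
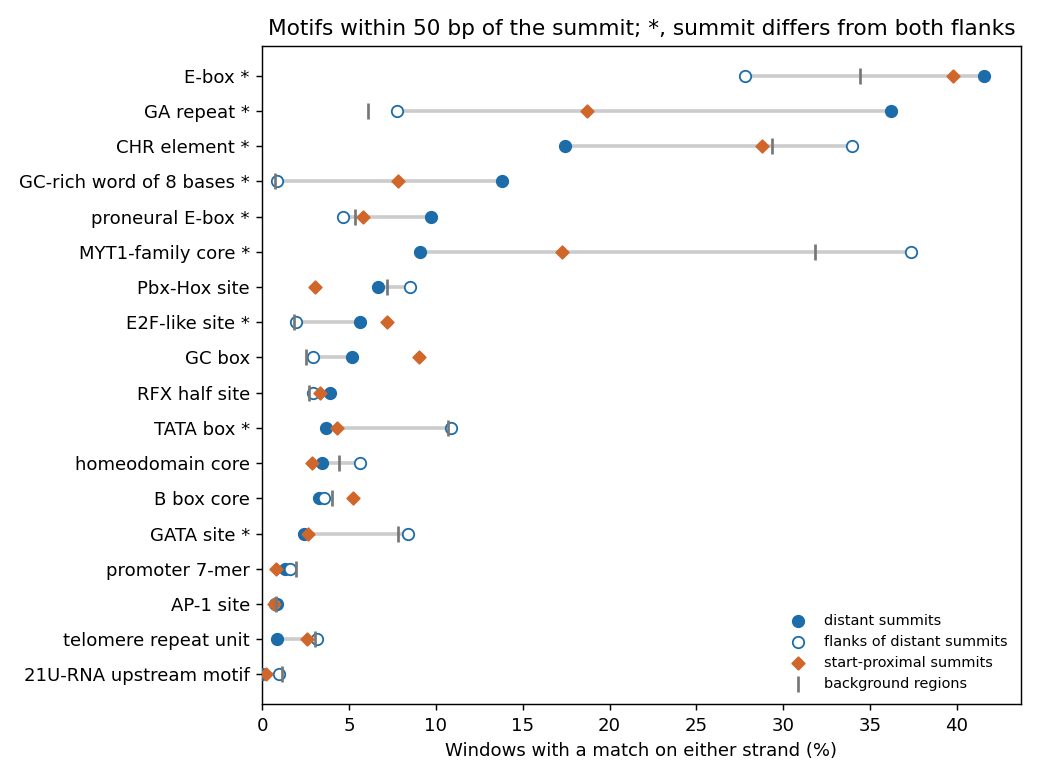
Share of windows within 50 bp of a summit with a match on either strand for 18 motifs, by name and including CTGCGTCT, which was chosen on these peaks, at distant summits, in their flanks, at start-proximal summits and in background regions; an asterisk marks motifs whose summit share differs from both flanks at an adjusted p under 0.05. The GA repeat stands at 36.2% of distant summits against 18.7% of start-proximal ones, and the MYT1-family core at 9.05% against 17.2%.

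Over all 2080 words of 6 bases, 200 (9.62%) were called higher at the distant summits than in both flanks, with a ratio over 1.5, and 179 (8.61%) were called lower by the exact McNemar test. Many of those with a high share overlapped the 2 leading words, such as AGAGAC in 25% of windows against 4.42% of flanks, CGTCTC in 23.5% against 3.02% and CGCAGA in 18.97% against 2.05%. The ratio was highest for GCGCGC, at 7.97% against 0.539%. The words called lower with the smallest ratios included AAGTTC (0.431% against 8.41%) and TTTAAA (1.94% against 18.3%).

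The plot of motif shares by distance shows a broad excess of the GA repeat. In windows of 21 bases, GAGAGA was in 7.97% at the summit, in 10.99% at 40 bp to the right and again in 7.97% at 120 bp to the left and 100 bp to the right. It was in 6.03% at 160 bp to the left, 6.25% at 140 bp to the right and 1.72% and 1.51% at 400 bp on the left and right. AAGTT was in 1.94% at the summit and 8.19% at 400 bp to the right.

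**Figure D4:**
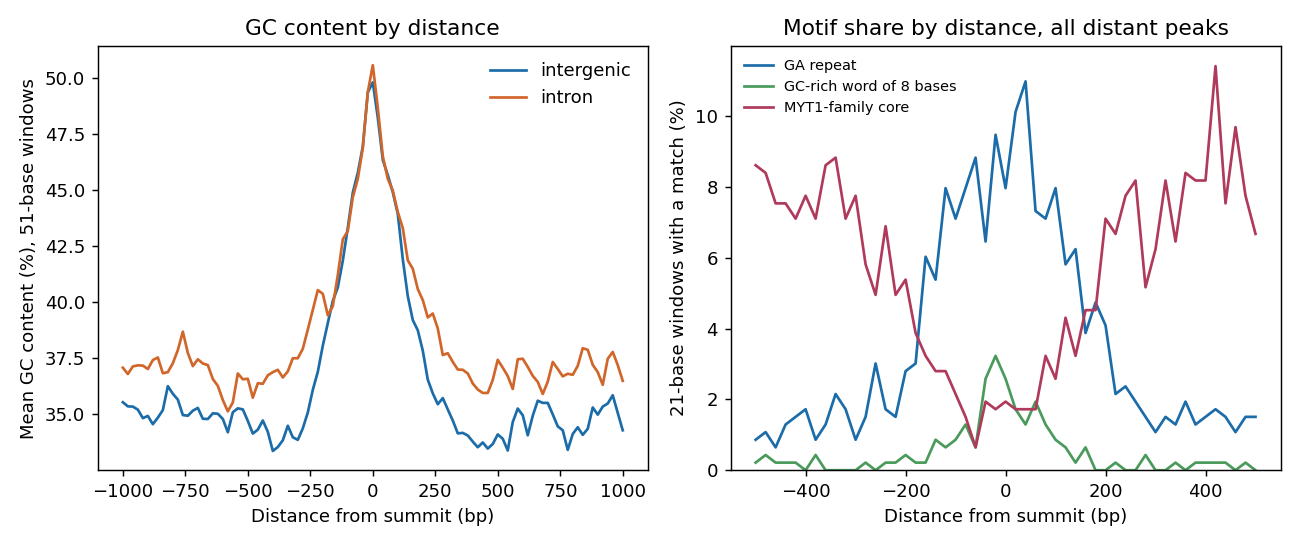
Left, mean GC content of 51-base windows by distance from the summit for 202 intergenic and 167 intron peaks; right, share of 21-base windows with the GA repeat, the GC-rich word of 8 bases or the MYT1-family core by distance from the summit for all 464 peaks. GC content and the GA repeat are high over more than 100 bp on both sides of the summit, where the MYT1-family core dips from 8.19% at 400 bp to 1.94%.

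Distant and start-proximal summits differed in 7 of 18 motifs (38.9%; Fisher's exact test, adjusted over the 18). GAGAGA was more frequent at distant summits (36.2% against 18.7%, odds ratio 2.46, exact adjusted p = 1.88e-11), and so were the Pbx-Hox site TGATNNAT (6.68% against 3.04%, adjusted p = 0.00668) and CAGCTG or CACCTG (9.70% against 5.78%, adjusted p = 0.0246). TTCGAA or TTTGAA was less frequent (17.5% against 28.8%, odds ratio 0.525, exact adjusted p = 2.13e-05), as were AAGTT (9.05% against 17.2%, odds ratio 0.482, adjusted p = 1.50e-04) and the GC box GGCGGG (5.17% against 9.01%, adjusted p = 0.0307). CTGCGTCT, the other of the 7, was in 13.8% against 7.84% and is given as a description because it was chosen on these peaks. The mean GC content of the start-proximal windows was 47.9% ± 7.90 (SD over 1021 peaks). In the 4 bins of pooled signal, from lowest to highest, GAGAGA was in 30.5%, 35.1%, 41.7% and 42.3% of distant windows and in 16.6%, 23.6%, 18.9% and 16.3% of start-proximal ones, so the gap was present at each strength. In the same bins CAGCTG or CACCTG was in 10.6%, 14.9%, 5.56% and 4.23% of distant and 6.91%, 4.29%, 6.06% and 5.86% of start-proximal windows, and the direction turned in the 2 stronger bins. CTGCGTCT was in 13.9%, 7.46%, 18.5% and 18.3% of distant and 9.22%, 8.15%, 8.33% and 6.19% of start-proximal windows, and the direction turned in the second bin. TGATNNAT was not called against the flanks of the distant summits, at 6.68% against 8.51% (exact McNemar test, adjusted p = 1). The calls of CAGCTG or CACCTG and of GGCGGG were lost at 500 bp from coding starts, and those of TGATNNAT and GGCGGG at 2000 bp. In windows of 25 bp either side AAGTT (exact adjusted p = 0.303), TTCGAA or TTTGAA (0.489), CAGCTG or CACCTG and TGATNNAT were not called, and GGCGGG was. In the strongest regions of replicate 2 alone, and among peaks at or above the median signal, CAGCTG or CACCTG, TGATNNAT and GGCGGG were not called, and in replicate 1 alone CAGCTG or CACCTG and GGCGGG were not. The call of GGCGGG was also lost with the 5' ends of all transcripts, with 1000 bp from every non-coding 5' end and for unmasked summits. CTGCGTCT was not among the motifs that differed at 2000 bp, in windows of 25 bp or in replicate 1 alone.

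Of the sites of a word in the genome few had a summit, and the share was not higher for distant sites. On the autosomes 3177 sites of CTGCGTCT met the distance rule and 71 (2.23%, interval 1.75 to 2.81) had a summit within 50 bp, against 89 of 2100 sites (4.24%, 3.42 to 5.19) within 1000 bp of a coding start. For GAGAGA the shares were 1.20% of 40744 distant sites and 1.36% of 22140 start-proximal ones. Distant GAGAGA sites were on soft-masked bases in 59.3% of cases with a summit within 50 bp and in 36.3% without one. For distant CTGCGTCT sites these shares were 64.8% and 59.5%. Overlapping matches were counted as separate sites, so a long GA run gave several. The GAGAGA shares are therefore of matches and not of separate runs: 489 distant sites lay at a summit, where 168 distant windows held the word. Of the distant summits themselves 13.1% were on soft-masked bases.

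Introns and intergenic sequence differed in 0 of 18 motifs (0%) by Fisher's exact test with adjustment, and 2 had an unadjusted p under 0.05. GAGAGA was in 43.1% of intergenic and 29.9% of intron windows (exact p = 0.00965, adjusted p = 0.0869), and GCGCGAA or GCGGGAA was in 2.97% of intergenic and 10.2% of intron windows (p = 0.00486, adjusted p = 0.0869). Among the 182 distant peaks with a signal at or above the median of the IDR list GAGAGA was called in this comparison.

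Each distant peak was assigned to its host gene or, where it had none, to the nearest coding gene on each side. A peak between genes thus counts for both, and 1 peak can add to 2 of the lists below. The peak between egl-4 and egl-18 does so, as the only one of either gene, and the shares of the lists are not independent. In all 541 of 17242 autosomal coding genes (3.14%) hosted or flanked a distant peak, 176 of them as hosts. Of these 417 had 1 peak, 98 had 2 and 26 had 3 or more. The genes were long, with a median of 4527 bp and of 9887.5 bp for hosts, against 1964 bp for all autosomal coding genes. The share with a distant peak was 1.34% of genes under 2000 bp, 2.90% of those from 2000 to 5000 bp, 7.54% of those from 5000 to 10000 bp and 13.9% of those of 10000 bp or more. For this reason the median gene length is given below for part of the lists, and no count is corrected for length. The 5 genes with 5 peaks each were ztf-11 itself, mnk-1, which encodes a MAP-kinase interacting kinase, gpb-1, the G protein beta subunit, and the neighbours F54F12.1 and Y39E4B.6, which share 1 group of 5 intergenic peaks with signals up to 311.

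Lists of neuronal genes differed widely, beside the 3.14% of all autosomal coding genes. The ion channel, twk and acr lists had none with a distant peak, and the neuropeptide and chemoreceptor lists had 1.89% and 0.402%. Of the axon guidance and adhesion list 10 of 31 autosomal members had one (32.3%, median gene length 13936 bp), among them smp-1, a semaphorin gene (signal 267), unc-71 (116), hmr-1, the cadherin gene (83.5), unc-44, the ankyrin gene, with 3 peaks (highest 81.5), plx-1, a plexin gene (78.3), and ptp-3 (73.2). Of the pan-neuronal list 7 of 26 had one (26.9%, 6358.5 bp), among them unc-64, the syntaxin gene (134), egl-3, a proprotein convertase gene (124), unc-51 (118), unc-108 (105), unc-33 (87.2) and snb-1, the synaptobrevin gene (79.4). Of the regulators of neurogenesis 5 of 17 did (29.4%, 3567 bp), which were ztf-11 (356), ztf-6 (139), the proneural gene hlh-14 (86.8), egl-27 (82.9) and sem-4 (80.1). The first of these is the tagged gene, and the strain's transgene can carry extra copies of its region. Of the terminal selectors, which fix the identity of neuron types, 4 of 28 did (14.3%, 4971 bp), which were egl-46 (235), ahr-1 with 3 peaks (130), zag-1 (87.6) and lin-11 (75.4). These lists were written with earlier results of these data known and were given no test, and neuronal genes are often long.

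Signalling and patterning genes were also among them. Of the cyclic nucleotide and G protein signalling list 8 of 25 had a distant peak (32%, median gene length 6305 bp), among them egl-30, the Gq alpha gene (227), gpb-1 (189), goa-1, the Go alpha gene (157), gsa-1, the Gs alpha gene (102), pde-4 (87.5) and egl-4 (84.4). Of the Wnt list 6 of 26 did (23.1%, 4365 bp), which were lit-1, the Nemo-like kinase gene with 3 peaks (172), the Frizzled gene lin-17 (162), pop-1, the TCF gene (131), mig-1 (85.0), wrm-1 (80.5) and cam-1 (68.8). Of the Hox genes and their TALE cofactors 3 of 8 did (37.5%, 4931.5 bp), which were unc-62 with 3 peaks (179), lin-39 (127) and mab-5 with 2 (101.4). Smaller counts came from Notch signalling with 3 of 22 (sup-17, sel-8 and lag-1, signals 116, 111 and 92.9), TGF-beta and Ras signalling with 3 of 21 (daf-5, lin-10 and daf-14) and the heterochronic genes with 2 of 12 (lin-42 and lin-41). Of the genes named ztf, which encode zinc-finger factors, 4 of 22 had one, the tagged ztf-11 among them, and ztf-27 had 3 peaks with signals up to 106.

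Other lists ranged from 0 to shares above the 3.14% of all genes. None of the 27 muscle genes (median length 6368 bp), 23 pharynx genes (3334 bp), 25 ion channel and transporter genes (7375 bp) or 34 twk potassium channel genes (5080 bp) hosted or flanked a distant peak, and neither did any of 75 cytosolic ribosomal protein genes (754 bp), 28 Argonaute genes, 16 T-box genes, 15 acr acetylcholine receptor genes, 5 fkh genes or 3 elt genes. Of the glia list 3 of 21 did (14.3%, 3469 bp; lit-1, egl-1 and hlh-30). Of these, lit-1 was also on the Wnt list and hlh-30 also among the hlh genes, so this share is not one of glial genes alone. Of the intestine list 2 of 27 had a distant peak (7.41%, 1996 bp; sca-1 and eps-8), and of the epidermis and seam list 2 of 28 (7.14%, 3623.5 bp; lin-1 and egl-18). The gene sca-1 was on the intestine list and not on the muscle list, so these shares depend on how the lists were written. The sequence at its strongest summit occurs 20 times in the reference. Among the families 5 of 1245 chemoreceptor genes (0.402%), 2 of 246 nhr genes (0.813%), 3 of 305 F-box genes (0.984%), 1 of 237 C-type lectin genes (0.422%), 1.55% of the col genes, 2 of 106 neuropeptide genes (1.89%), 1 of 45 ceh genes (2.22%) and 2 of 19 hlh genes (10.5%) did.

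**Figure D5:**
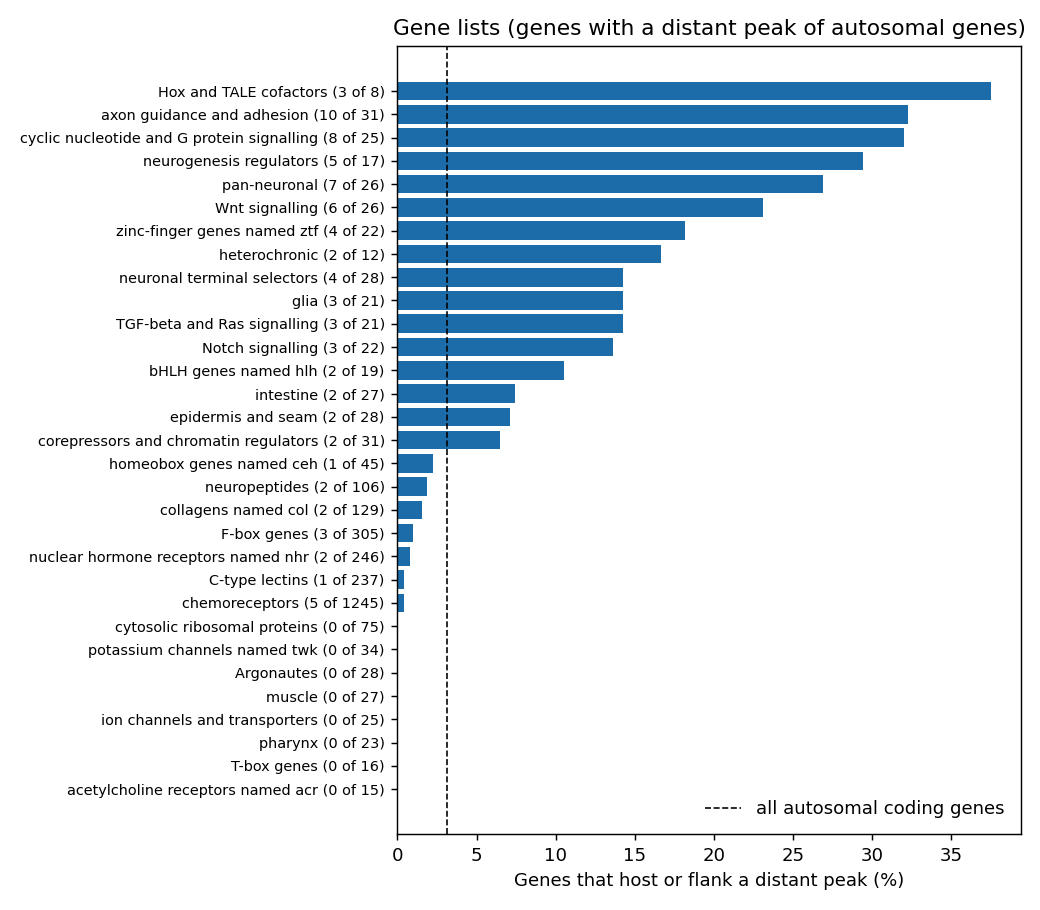
Share of each gene list whose autosomal members host or flank a distant peak, for lists of 8 members or more, with the counts beside the names and a dashed line at the 3.14% of all autosomal coding genes. Axon guidance (32.3%), heterochronic (16.7%), glia (14.3%), hlh (10.5%), intestine (7.41%) and epidermis lists (7.14%) are among those above the line, neuropeptides (1.89%) lie below it, and muscle, pharynx, ion channel and acr genes stand at 0.

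Other genes with 3 or more peaks, beyond those named, were zfp-1 (highest signal 325), lntl-1 (270), ZK930.6 (264), aakg-1, a gene of AMP-activated protein kinase (178), lsy-22 (174), cyd-1, the cyclin D gene (147), tent-5 (117) and tax-6, the calcineurin A gene (86.4), and hmt-1 and pqn-41 had 4 each. F44E5.4, F52F12.5, K02B2.6 and Y37A1B.7 shared theirs with neighbouring genes. Around ztf-11, the tagged gene, 5 distant peaks lay within 50000 bp, the strongest at 356 with ranks 113 and 125, and 2 lay as near to unc-119. The strain's transgenes can carry extra copies of these regions, and the part that such copies have in the signal was not tested. With the 7 left out, 5 motifs were still called higher at the summits than in both flanks.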

How the data were processed

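ChIP-seq peaks of GFP-tagged ZTF-11 came from 2 biological replicates of L1 larvae. The authors called regions on each replicate and on both pooled, against a control alignment, and derived the IDR list from these, per the listing deposited beside the files. Aligner, caller, versions and IDR threshold: not given in the sources used here. All deposited signal values are set by the caller and differ in scale from list to list, so they served to rank and describe peaks. Read depth is unknown, which limits what can be said of single peaks. Control libraries were not analysed here, and lists on ce10 were not used. Each replicate list held 30000 regions, background included.

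Summits on ce11 were classed with Ensembl annotation of WBcel235, and sequence and soft-masking came from RefSeq WBcel235. Positions count from 1. A class was taken in the order coding exon, 5' UTR, 3' UTR, other exon, intron of a coding gene, intron of another gene, intergenic. Background was the pooled regions ranked after 18750. Fisher's exact test (two-sided) and the exact McNemar test were used with Benjamini-Hochberg adjustment, and an adjusted p below 0.05 was called. Shares have 95% Clopper-Pearson intervals, for counting error alone. Ratios had 0.5 added to counts. The tests count peaks, which are not replicates of a condition, and the code was tested on simulated data.

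The text names the host or flanking genes of the 25 strongest distant peaks, genes with 3 or more, up to 6 members of each of 33 gene lists and up to 10 non-coding genes; others were chosen after their values were seen. The peaks, lists and motifs were chosen with earlier results of these data known. Alternatives were other distances, starts, windows, flanks, matches and backgrounds, the stronger peaks, unmasked summits and either replicate alone. Python 3.11.15, pandas 2.3.3 and scipy 1.17.1 were used.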

Additional observations from a re-analysis of the deposited data

How the results depend on the processing

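The intergenic share, the soft-masked share and the GA repeat's calls against the flanks and against start-proximal peaks held under every alternative run for them. The intron share, which was not called against background, was 31.04% (p = 0.302, on the other side of background) at 500 bp from coding starts and 29.8% (p = 0.622, likewise) with the 5' ends of all transcripts, and it was called higher at 41.8% (p = 0.0123) with 1000 bp from every non-coding 5' end and at 36.97% (p = 1.77e-07) for unmasked summits, all by Fisher's exact test. At 2000 bp, 4 motifs differed from start-proximal peaks, 120 words of 6 bases were called higher and 13.9% of intron peaks had a transcript start within 500 bp (exact p = 0.162). With 1000 bp from every non-coding 5' end, 112 such words were called. At or above the IDR list's median signal there were 182 distant peaks with a median signal of 161.5 and 222 genes, 95.6% were matched in both replicates (exact p = 0.489), and 3 motifs were called against flanks, 4 against start-proximal peaks, 1 between introns and intergenic sequence, and 35 words of 6 bases. Windows of 25 bp gave 2 motifs against start-proximal peaks and 81 words, and windows of 100 bp gave 12 and 333; fewer or more bases per window change what can be counted. For the other changes the cause was not tested. The strongest regions of either replicate alone gave 488 to 503 distant peaks, 40.8% to 41.9% intergenic and 35.6% to 35.7% intron shares, 15.3% to 16.8% soft-masked summits, 15.1% to 17.2% with a transcript start, 548 to 562 genes, 2 to 4 motifs against flanks, 4 to 5 against start-proximal peaks, 0 between introns and intergenic sequence, and 140 to 190 words. Leaving out the 10 peaks of repeated sequence or the peaks near ztf-11 and unc-119, choices made after seeing the data, changed no call. The transcript-start share has no value with all transcripts' 5' ends, which the rule then removes. No paired analysis was possible because there is 1 group.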
